A study of Homo sapiens with 20 samples.

Results

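The major cluster of replication-dependent histone genes lies on the short arm of chromosome 6. Its H3K4me3 peaks were described in 10 libraries of WM164, a human melanoma cell line with a mutant BRAF kinase. Peaks were taken by position alone: every peak that overlapped chr6:26017000-26290000 (the first interval, 273 kb) or chr6:27090000-27870000 (the second interval, 780 kb) in GRCh37. These were 1043 of the 306295 peaks on the autosomes and X. Joined across libraries wherever they overlapped or lay within 1000 bp of each other, they made 72 of 31428 regions, 22 in the first interval and 50 in the second.

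H3K4me3, the trimethylated form of lysine 4 on histone H3, is found around start sites that are in use. It was measured by sequencing the DNA pulled down with it from fixed chromatin. The 5 groups had 2 libraries each, all from WM164. Parental cells received the solvent DMSO for 3 days. Colony cells grew in 50 nM dabrafenib, a BRAF inhibitor, for 45 days, and resistant cells were held in 50 nM dabrafenib for more than 90 days, with the drug renewed every 3 days. The remaining groups overexpressed GFP or NRAS Q61K, an activated RAS protein that signals upstream of BRAF. No drug dose or exposure time is listed for them. The sources used here give neither the promoter of the transgene nor whether a group is 1 clone. Nothing in the labels says that the replicates were separate cultures, so every p-value measures the spread between these libraries and nothing more, and that spread may be technical.

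Replication-dependent histone genes supply the histones that package newly made DNA. They are small genes without introns, are transcribed mainly in S phase, and yield messenger RNAs that end in a stem-loop in place of a poly(A) tail. H2A, H2B, H3 and H4 form the core of the nucleosome, and H1 binds the linker DNA. Many H2A and H2B genes sit head to head and share the sequence between them.

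No gene model of GRCh37 was used, so no region below is assigned to a gene. In the RefSeq gene order of GRCh38.p14, 53 protein-coding histone genes run from H1-1 to H2BC17, of which 6 encode H1, 11 H2A, 14 H2B, 10 H3 and 12 H4. They fall into 3 blocks. The first block, H1-1 to H4C8, holds 32 histone genes and 1 other protein-coding gene, HFE, a regulator of iron uptake. The second, H2BC11 to H2AC12, holds 5 histone genes, and the third, H2BC13 to H2BC17, holds 16. Between H2AC12 and H2BC13 lie 5 other protein-coding genes (PRSS16, POM121L2, LOC105375107, ZNF391 and ZNF184) and 51 tRNA genes. A peak in this neighbourhood may therefore belong to a gene that encodes no histone.

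The promoters of these genes differ by histone class. RefSeq promoter windows of GRCh38.p14 were matched for 48 of the 53 genes, 52 windows in all, and 4 motifs were searched on both strands in the 250 bases before the start; none of the 4 contains another. The octamer ATTTGCAT was in 12 of 16 H2B windows, 8 of 10 H2A windows and 1 of 10 H3 windows. It was in no H1 or H4 window, and in 1.63% of all 35116 promoter windows. The H3 window belonged to H3C4, and its matches stood at the same positions as those of H2AC7, the octamer 119 bases before the start. CCAAT was in every H1, H2A, H2B and H3 window and in 3 of 10 H4 windows, against 32.0% of all. TATAAA was in 34 of 52 windows (65.4%), against 10.7% of all. The H1 box AAACACA was in 6 of 6 H1 windows and in none of the other classes, against 4.82% of all. Every H1 window but that of H1-1 had a match on the gene's strand, 105 to 119 bases before the start. In H1-1 the only match was on the opposite strand, 183 bases before it. A stretch between head-to-head genes can fall in both windows, and some genes, H2BC12 and H3C4 among them, had more than 1 window. Windows are therefore not independent, and a match is a description of letters only.

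The first gene of each class in map order with a window is shown to let the classes be compared. Each sequence is the 200 bases before the start, 5′ to 3′ on the gene's strand, with positions in GRCh38.p14, a build other than that of the peaks. Capitals mark matches of the 4 motifs on either strand.
H1-1 (chr6:26017788-26017987, minus strand): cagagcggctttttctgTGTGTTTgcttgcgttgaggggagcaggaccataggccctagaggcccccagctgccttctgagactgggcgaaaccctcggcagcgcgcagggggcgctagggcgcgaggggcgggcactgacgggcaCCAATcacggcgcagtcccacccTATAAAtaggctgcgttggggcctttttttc
H2AC4 (chr6:26033619-26033818, minus strand): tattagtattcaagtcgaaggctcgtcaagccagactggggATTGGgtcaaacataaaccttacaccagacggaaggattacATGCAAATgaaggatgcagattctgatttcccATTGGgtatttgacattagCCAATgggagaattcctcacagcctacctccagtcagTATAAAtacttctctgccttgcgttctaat
H2BC3 (chr6:26043714-26043913, minus strand): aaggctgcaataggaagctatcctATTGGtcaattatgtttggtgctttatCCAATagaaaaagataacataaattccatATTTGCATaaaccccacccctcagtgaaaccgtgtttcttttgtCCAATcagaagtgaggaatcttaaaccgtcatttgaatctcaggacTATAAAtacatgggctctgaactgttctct
H3C1 (chr6:26020251-26020450, plus strand): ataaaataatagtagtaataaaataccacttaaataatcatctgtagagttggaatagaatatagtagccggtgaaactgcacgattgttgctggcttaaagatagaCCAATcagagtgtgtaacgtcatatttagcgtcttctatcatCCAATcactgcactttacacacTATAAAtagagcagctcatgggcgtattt
H4C2 (chr6:26027284-26027483, minus strand): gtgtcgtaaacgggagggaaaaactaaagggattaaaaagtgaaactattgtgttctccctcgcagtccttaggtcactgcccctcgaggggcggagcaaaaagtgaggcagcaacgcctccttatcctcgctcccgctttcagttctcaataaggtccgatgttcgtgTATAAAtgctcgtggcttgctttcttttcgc
In H1-1 the capitals are AAACACA on the opposite strand, CCAAT and TATAAA, in that order. The AAACACA match lies farther from the start than the gene-strand match nearest the start in the other H1 windows. H2AC4 and H2BC3 both carry the octamer, on opposite strands relative to the gene, between CCAAT matches. H3C1 has a pair of CCAAT matches and TATAAA, and H4C2 has TATAAA alone within these 200 bases.

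The cluster was densely covered in every library. Peaks covered 160, 148, 162, 167, 132, 126, 170, 169, 177 and 159 kb of the 1053 kb in parental 1, parental 2, colony 1, colony 2, resistant 1, resistant 2, GFP 1, GFP 2, NRAS Q61K 1 and NRAS Q61K 2. The resistant libraries were the lowest pair, and the other 8 lay above both. The first interval was the denser: 24.2% ± 1.14 of its bases (SD, n = 2) were under a peak in parental cells, 27.3% ± 0.648 in colony, 21.5% ± 0.955 in resistant, 25.9% ± 0.194 in GFP and 26.0% ± 1.64 in NRAS Q61K cells. The second interval had 11.3% ± 0.673, 11.6% ± 0.193, 9.02% ± 0.202, 12.6% ± 0.0244 and 12.4% ± 1.06 in the same order. When the autosomes and X were cut into 11125 windows as long as the first interval, none had more covered bases than that interval in any library. Of 3901 windows as long as the second interval, 3 to 8 had more, depending on the library. Windows were cut from position 1 of each chromosome, while the intervals were placed on the histone genes, which can favour the intervals.

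**Figure D1:**
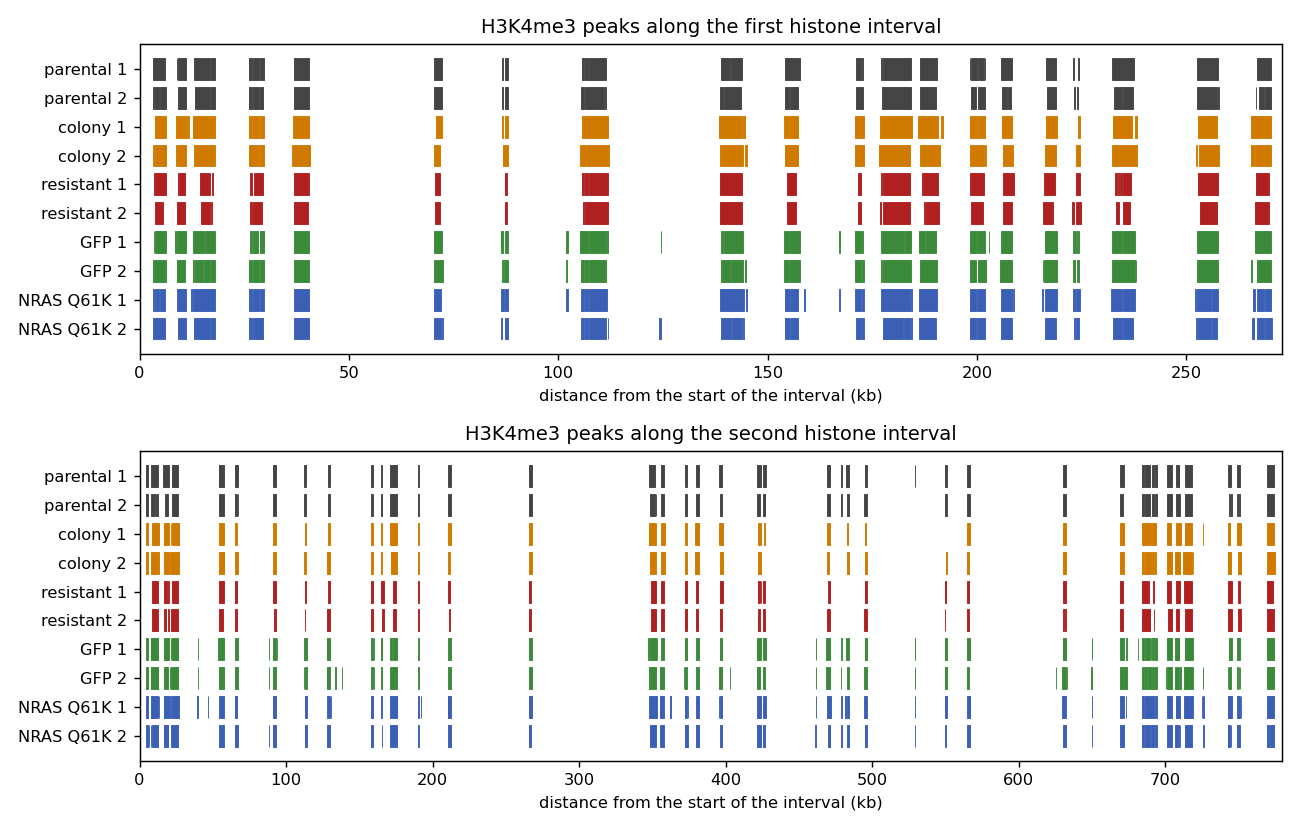
H3K4me3 peaks along the first (top) and second (bottom) interval, 1 row per library, with distance from the start of the interval in kb on the x axis and each block a called peak (the narrowest are drawn at the width of a thin line). Resistant rows lack blocks near 4 and 482 kb of the second interval, colony and resistant rows lack the block near 478 kb, and the thin extra blocks lie mostly in the GFP and NRAS Q61K rows.

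The lists behind these values differ in size. Over the autosomes and X, they held 29258 and 30065 peaks for the parental pair, 21408 and 21573 for colony, 19401 and 19111 for resistant, 41806 and 45376 for GFP, and 40648 and 37649 for NRAS Q61K. Read depth per library is not in the peak lists. The shortest peak of a list, which commonly follows the fragment length, was 202 and 180 bp for parental, 282 and 284 bp for colony, 255 and 256 bp for resistant, 142 and 153 bp for GFP, and 153 and 151 bp for NRAS Q61K. It moved with the groups, and its part in the differences below was not tested. The labelled cell type could not be checked against melanocyte markers, since genes were not placed on GRCh37.

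Most of the cluster's marked regions were shared by all libraries. Of the 72 regions, 51 (70.8%) had a peak in all 10 libraries, against 38.5% of the 31428 regions overall; 14 were marked only in GFP or NRAS Q61K libraries (19.4%, against 30.8%), and the remaining 7 had mixed patterns. Of these 7, 5 are described with the comparisons below; chr6:27619009-27619498 had a peak in parental 1 and the 4 transgene libraries, with 226 to 357 bp, and chr6:27815040-27816230 in colony 1, GFP 2 and both NRAS Q61K libraries, with 155 to 445 bp. In the first interval, 19 of 22 regions were in all 10 libraries and the other 3 only in transgene libraries, so every region there with a peak in a parental library also had one in each drug library. In the second interval, 32 of 50 were in all 10 libraries. The 14 transgene regions were small: a library covered 142 to 584 bp in each where it had a peak, 7 were in a single library, and 2 were in all 4 transgene libraries. The libraries marked 57 and 56 regions (parental), 55 and 54 (colony), 53 and 53 (resistant), 65 and 67 (GFP), and 65 and 62 (NRAS Q61K).

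Bases shared by all 10 libraries came to 101 kb of the 212 kb covered in any (47.4%). The share was 52.9% in the first interval and 43.5% in the second. On covered bases of the cluster, the Jaccard index (shared bases over bases covered in either) was 0.844 ± 0.0140 (SD) over the 5 pairs of replicates, with a range of 0.833 to 0.868. Its mean between groups was 0.793 for colony and parental, 0.705 for resistant and parental, 0.705 for resistant and colony, and 0.830 for NRAS Q61K and GFP libraries. It was 0.828 for GFP and parental and 0.667 for GFP and resistant libraries. All of these means lay below the lowest pair of replicates, and those with resistant libraries were the lowest. Single pairs of GFP and parental libraries reached 0.852, within the range of the replicates. Over the 51 regions in all libraries, replicates differed in covered bases by a median of 6.70% of their mean in parental, 8.49% in colony, 8.23% in resistant, 5.66% in GFP and 11.8% in NRAS Q61K cells.

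Cluster regions were long beside all merged regions, and the peaks in them were broken up to different degrees. The median region length was 3978 bp in the first interval and 2444.5 bp in the second, against 1140 bp over all regions. Of all regions, 26.3% were in 1 library only, against 9.72% in the cluster. Single cluster peaks had a median of 1641 and 1341 bp in parental libraries, against 840.5 and 752 bp over the whole lists. The medians were 1707.5 and 1555.5 against 1472 and 1518 bp in colony, and 1425.5 and 1309 against 1593 and 1553 bp in resistant libraries. A marked region held on average 1.63 and 1.84 separate peaks for parental, 1.45 and 1.56 for colony, 1.47 and 1.45 for resistant, 2.08 and 2.01 for GFP, and 2.09 and 1.97 for NRAS Q61K. Peak number and covered bases therefore differed in order: colony libraries had fewer peaks in the cluster than parental libraries (80 and 84 against 93 and 103) but more covered bases.

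The 5 regions with the most covered bases had peaks in every library. The region chr6:27773966-27784404 came first with a mean of 7779.6 bp over the 10 libraries (range 5348 to 8998), then chr6:27106103-27116761 with 7501.8 bp (5808 to 8873), chr6:26193677-26201500 with 6959.0 bp (6511 to 7503), chr6:26025554-26035086 with 6443.4 bp (4354 to 8073) and chr6:26122253-26129031 with 5935.8 bp (5503 to 6744). The authors' fold of a peak, its summit over the local background used when peaks were called, gave another order. Ranked by it within each list, chr6:26122253-26129031 stood between 1 and 10.5 among the cluster's marked regions and chr6:27106103-27116761 between 1 and 8. The other 3 of the 5 highest by mean fold were chr6:27802067-27809151 (ranks 2.5 to 21), chr6:27437214-27443184 (3.5 to 18.5) and chr6:26193677-26201500 (4.5 to 16). The most covered region, chr6:27773966-27784404, ranked only 9 to 31.5 by fold.

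**Figure D2:**
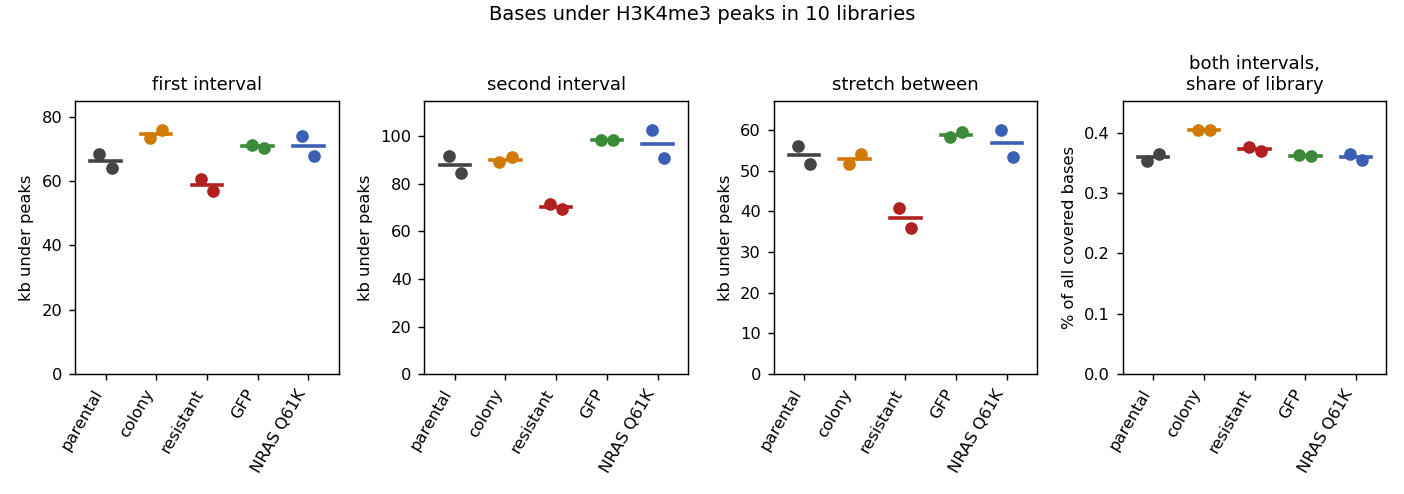
Bases under H3K4me3 peaks per library in kb for the first interval, the second interval and the stretch between them, and, on the right, both intervals as a percentage of all covered bases of the library. Points are libraries and bars the means of 2; resistant points are lowest in the first 3 panels, and colony points (0.404% each) are highest in the last.

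Colony cells had more of the first interval under peaks than parental cells, while the second interval overlapped between them. In the first interval the covered length was 68.4 and 64.0 kb in parental and 73.4 and 75.9 kb in colony libraries, a rise of 12.8% with groups that did not overlap (two-sided exact permutation test, p = 0.333, the smallest that 2 against 2 allows). In the second interval it was 91.8 and 84.4 kb against 89.1 and 91.2 kb, and the groups overlapped (p = 1.0, exact permutation test). Both intervals together gave 154 ± 8.36 kb in parental and 165 ± 3.28 kb in colony cells (SD, n = 2), a difference of 6.81%. As a share of all covered bases, the cluster took 0.354% and 0.365% in parental and 0.404% and 0.404% in colony libraries, and both colony values stood above those of the other 8 libraries.

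Single regions were tested with limma on log2(covered bases + 200), each library centred on its median region, with Benjamini-Hochberg adjustment over 23153 regions and a threshold of 0.05; 65 of the 72 cluster regions had a peak in the required 2 libraries and entered. In colony against parental cells, 6 of the 65 were wider (9.23%, against 4.29% of all regions tested) and 4 were narrower (6.15%, against 16.7%), 21.0% of all regions having changed either way. Among the 51 regions marked in all libraries, 6 were wider and 1 was narrower (11.8% and 1.96%, against 5.77% and 9.33% of all such regions). The median log2 change was 0.01 over the 65 and −0.05 over all regions tested, some of which had no peak in either group. It was 0.059 over the 51 and −0.0056 over all regions marked in all libraries.

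The widened region with the smallest adjusted p was chr6:26282438-26287504, 265 kb into the first interval. It had 3313 and 3006 covered bases in parental libraries and 4894 and 4600 in colony libraries, with 3003 and 3304 for resistant, 3677 and 3498 for GFP, and 3760 and 3849 for NRAS Q61K. Colony cells stood above all other groups there (log2 change 0.53 ± 0.075 SE against parental, limma adjusted p = 0.00178). At chr6:27796896-27800557 covered bases went from 2062 and 1852 in parental to 3139 and 2929 in colony libraries (log2 change 0.56, limma adjusted p = 0.00903). The other 4 widened regions were large ones: chr6:26155450-26162082, chr6:26203040-26208834, chr6:27106103-27116761 and chr6:27097558-27103249, with log2 changes of 0.27, 0.27, 0.31 and 0.20 (limma adjusted p from 0.0140 to 0.0468).

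All but one of the 4 narrowed regions lay in the second interval and lost peaks outright in a colony library. The region chr6:27568391-27569201 had 663 and 517 covered bases in parental libraries and 0 and 0 in colony libraries (limma adjusted p = 3.65e-04). It was the only cluster region marked in both parental and neither colony library, 1 of 56 marked in both parental libraries, where 15.6% of all such regions were lost. None of 15 cluster regions unmarked in parental cells had a peak in both colony libraries, against 1.71% of all such regions. Of these 15, 14 were the small transgene regions. They are too few to show a difference from that share, as are the unmarked regions in the comparisons below. At chr6:27515358-27517358 covered bases were 1834 and 1534 in parental and 444 and 0 in colony libraries (limma adjusted p = 0.00795), and at chr6:27639443-27640886 they were 1310 and 694 against 0 and 368 (limma adjusted p = 0.0280). The fourth, chr6:26087230-26089447, kept its peaks and went from 1879 and 1806 to 1448 and 1474 bases (log2 change −0.32, limma adjusted p = 0.0351).

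Of these 10 calls, 2 held with each of the 4 libraries left out in turn, the regions at 265 kb of the first interval and at 478 kb of the second (chr6:26282438-26287504 and chr6:27568391-27569201). The count fell to 3 without parental 1 and to 4 without colony 1, and was 8 without parental 2 or colony 2.

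**Figure D3:**
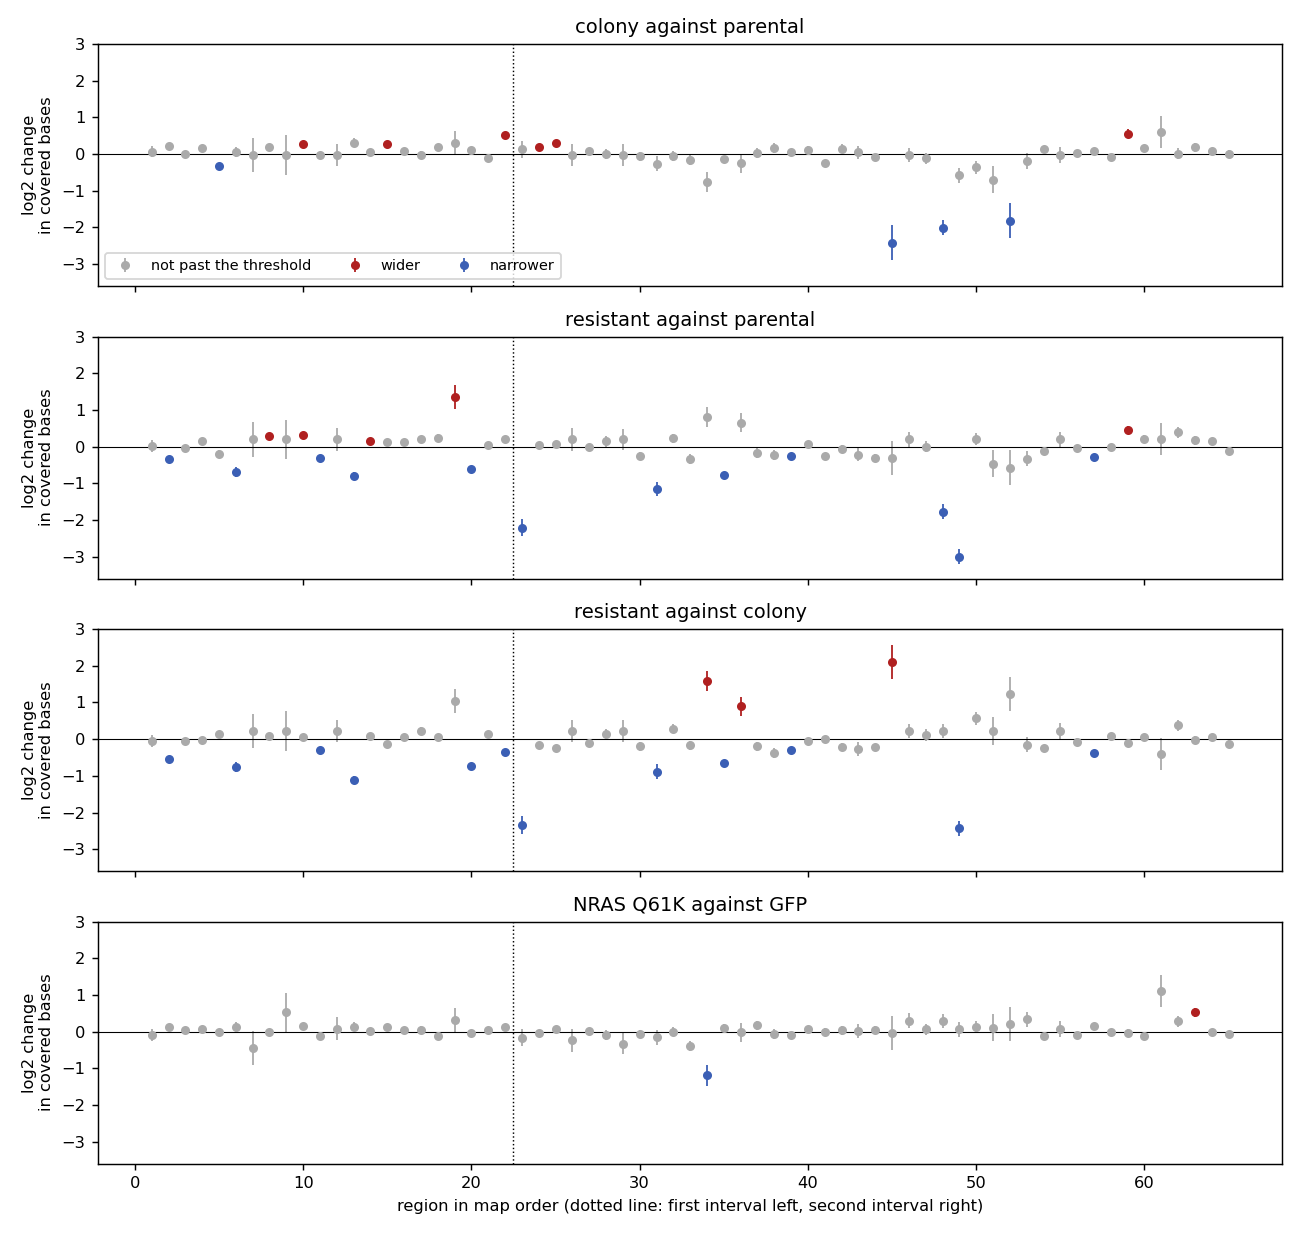
Log2 change in covered bases (y axis, error bars ± 1 SE from limma, after centring each library) for the 65 tested cluster regions in map order (x axis) in 4 comparisons; red and blue points passed adjusted p of 0.05 as wider or narrower. Most points lie near 0; blue points are most numerous in the resistant comparisons (12 in each), and NRAS Q61K against GFP has 1 of each colour.

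Resistant cells had less of the cluster under peaks than parental cells, which also served as controls for colony cells. The covered length was 60.5 and 56.8 kb in the first interval and 71.5 and 69.3 kb in the second, below both parental libraries in each. The first interval fell by 11.3% and the second by 20.1%, and together they fell from 154 ± 8.36 to 129 ± 4.18 kb (SD, n = 2), a change of −16.4% (two-sided exact permutation test, p = 0.333, the smallest possible). The stretch between the intervals fell by 28.7%. All marked sequence had shrunk in these libraries, from 45.3 and 40.7 Mb in parental to 34.6 ± 0.746 Mb in resistant cells, so that as a share of all covered bases the direction reversed: 0.376% and 0.370% in resistant against 0.354% and 0.365% in parental libraries.

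Relative to the centre of each library, 12 of the 65 tested regions were narrower in resistant than in parental cells (18.5%, against 20.6% of all regions tested) and 5 were wider (7.69%, against 7.93%), where 28.6% of all changed either way. Over the 65, both shares were near the background, and the median log2 change was 0.01, against −0.07 over all. Among the 51 regions marked in all libraries, 9 were narrower and 5 were wider (17.6% and 9.80%, against 12.4% and 9.46% of all such regions). By interval, 22.7% were narrower and 18.2% wider of 22 regions in the first, and 16.3% and 2.33% of 43 in the second. The medians that centring took off the resistant libraries were −0.19 and −0.22 on the log2 scale, so centring raised their values. It also raised regions with no peak in either group, which count in the median over the 65. Over the 51 regions marked in all libraries the median was 1.8e-04, against 0.0012 over all such regions. Without it, 19 regions were narrower and 1 was wider, 30.8% of the 65 against 35.2% of all regions tested.

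A set of 3 regions lost its peaks in both resistant libraries, all in the second interval. At chr6:27571650-27574298, 482 kb into it, covered bases were 1781 and 1500 for parental, 806 and 1369 for colony, 0 and 0 for resistant, 1632 and 1609 for GFP, and 1821 and 1493 for NRAS Q61K (limma adjusted p = 3.27e-05 against parental). At chr6:27094284-27096299, 4 kb into it, they were 829 and 894, 803 and 1188, 0 and 0, 1432 and 927, and 1042 and 904 in the same order (limma adjusted p = 3.08e-04). The last was chr6:27568391-27569201, which also had no colony peak and held 592 to 811 bp in the 4 transgene libraries (limma adjusted p = 4.14e-04). These were 3 of 56 regions marked in both parental libraries (5.36%), where 22.0% of all such regions were lost; 0 of 15 unmarked regions were gained, against 4.63%. The median peak of the cluster stood at percentile 64.6 and 64.0 of the parental lists by the authors' fold. It stood at 56.5 and 57.4 of the colony lists and at 45.7 and 42.1 of the resistant lists. The GFP lists gave 66.2 and 67.6, and the NRAS Q61K lists 66.4 and 67.9. The part of peak strength in these shares of lost and gained regions was not tested.

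The other narrowed regions kept a peak but shrank. The region chr6:26249158-26255225, 232 kb into the first interval, covered 5257 and 4646 bp (parental), 5143 and 5897 (colony), 2934 and 2537 (resistant), 5289 and 5478 (GFP), and 5461 and 4684 (NRAS Q61K). The resistant pair did not overlap any other group (log2 change −0.62 ± 0.081 SE, limma adjusted p = 8.77e-04). By the authors' fold, this region ranked 3.5 and 2.5 among the marked cluster regions within the parental lists.

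At chr6:26187816-26190069, 171 kb into the first interval, covered bases were 1561 and 1631 for parental, 1958 and 2183 for colony, 740 and 664 for resistant, 1655 and 1830 for GFP, and 2011 and 1730 for NRAS Q61K (log2 change of resistant against parental −0.80 ± 0.11 SE, limma adjusted p = 0.00134). At chr6:27261081-27265910, 171 kb into the second interval, they were 4312 and 4602, 3991 and 4307, 2062 and 2254, 4362 and 4527, and 4752 and 4574 in the same order (−0.79 ± 0.083 SE, limma adjusted p = 2.92e-04). In both, the resistant pair lay below all 8 other libraries, which ran from 1561 to 2183 bp in the former and from 3991 to 4752 bp in the latter. Resistant libraries were also the lowest pair at chr6:27202347-27204170, with 1402 and 1361 bp in parental and 526 and 330 in resistant libraries (limma adjusted p = 0.00380), and at chr6:26103261-26105074, with 1060 and 1013 against 482 and 445 (limma adjusted p = 0.00659).

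The remaining 4 narrowed regions changed less. At chr6:26170916-26175903 covered bases went from 3438 and 3036 to 2255 and 2139 (log2 change −0.32, limma adjusted p = 0.00408), and at the most covered region, chr6:27773966-27784404, from 7842 and 7843 to 5348 and 5746 (−0.29, limma adjusted p = 0.00973). At chr6:26025554-26035086 they went from 6850 and 6042 to 4411 and 4354 (−0.34, limma adjusted p = 0.00983), and at chr6:27437214-27443184 from 4005 and 3868 to 2754 and 2947 (−0.24, limma adjusted p = 0.0403).

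Of the 5 wider regions, chr6:26239819-26241934 showed the largest log2 change, 1.34, with 538 and 398 covered bases in parental and 938 and 1703 in resistant libraries (limma adjusted p = 0.0163). Its resistant libraries were far apart, and the call was lost without parental 1, parental 2 or resistant 2. At chr6:26155450-26162082 the values were 4775 and 4655 against 5084 and 5253 (0.32, limma adjusted p = 0.00645). The log2 change is larger than these bases alone give, because centring raised the resistant values at every wider region. The others, chr6:27796896-27800557, chr6:26122253-26129031 and chr6:26193677-26201500, had log2 changes of 0.46, 0.28 and 0.16. At the last of these the mean in bases was lower in resistant cells, 6746.5 against 6917 bp, so that without centring its direction was reversed. Of the 17 calls, 10 held with each of the 4 libraries left out in turn, 9 narrower and 1 wider; among the narrower, the call at chr6:26025554-26035086 was lost without parental 1 (limma adjusted p = 0.0612) or resistant 1 (0.0501). That at chr6:27773966-27784404 was lost without parental 2 (limma adjusted p = 0.0548) or resistant 1 (0.0661), and that at chr6:27437214-27443184 without any 1 of the 4 libraries (0.0523 to 0.199). Of the wider, chr6:27796896-27800557 was lost without parental 1, parental 2 or resistant 1, chr6:26122253-26129031 without parental 1 or resistant 1, and chr6:26193677-26201500 without parental 1, resistant 1 or resistant 2.

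**Figure D4:**
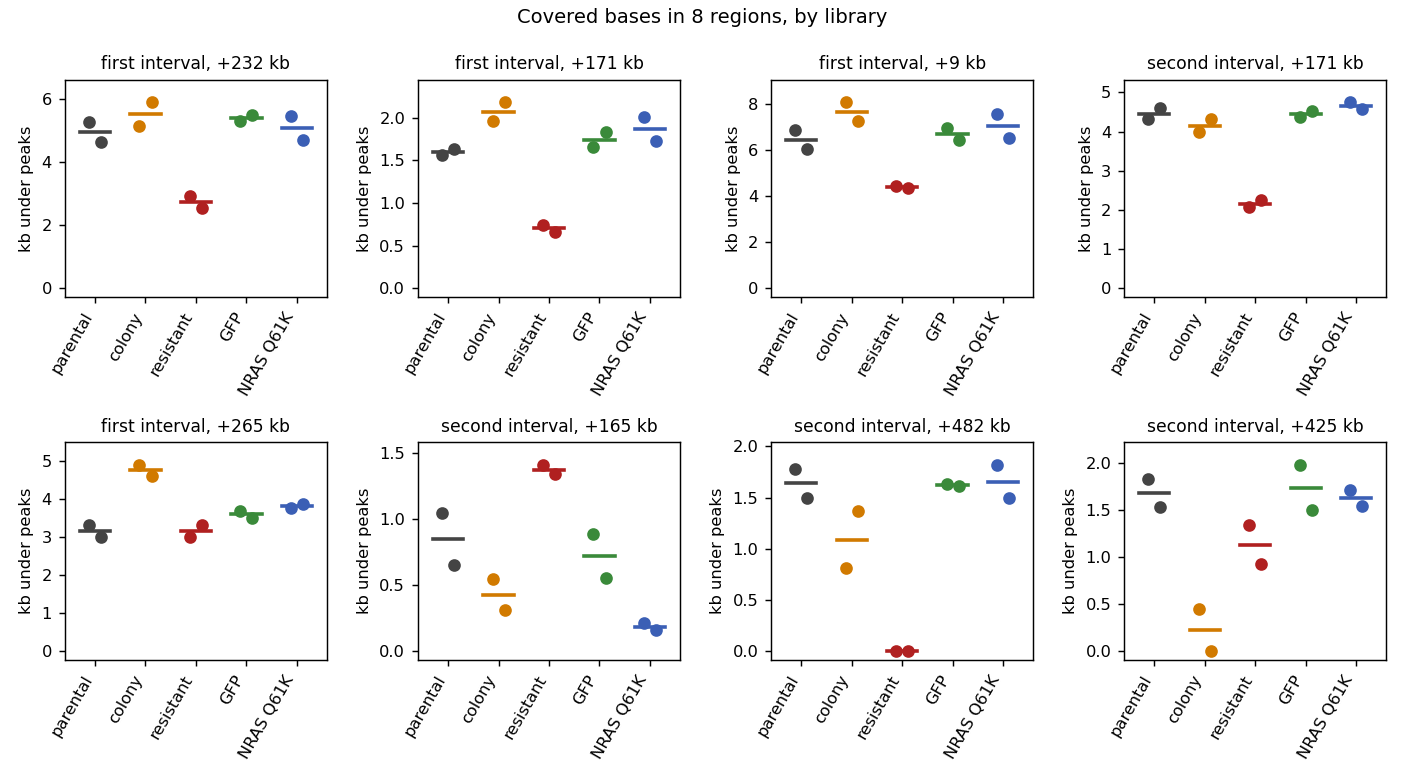
Covered kb (y axis, from 0) by library in 8 cluster regions, named by their distance in kb from the start of the interval; points are libraries and bars the means of 2. Resistant libraries are lowest in the top row and at 482 kb of the second interval, colony libraries are highest at 265 kb of the first and lowest at 425 kb of the second, and NRAS Q61K libraries are lowest at 165 kb of the second.

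Between the drug-treated groups, the resistant cells had the smaller covered length in both intervals. The cluster fell from 165 ± 3.28 kb in colony to 129 ± 4.18 kb in resistant cells (SD, n = 2), a change of −21.7% with no overlap (two-sided exact permutation test, p = 0.333, the smallest possible). After centring, 12 of 65 regions were narrower (18.5%, against 11.5% of all regions tested) and 3 were wider (4.62%, against 11.0%), where 22.5% of all changed either way. Among the 51 regions marked in all libraries, 10 were narrower and 2 were wider (19.6% and 3.92%, against 12.6% and 13.1% of all such regions). Without centring, 24 were narrower and 2 wider, 40.0% of the 65 against 29.0% of all regions tested. Regions without a peak in either resistant library but with one in both colony libraries numbered 2 of 53 (3.77%, against 8.19% of all such regions), chr6:27094284-27096299 and chr6:27571650-27574298, whose values stand above. None of 16 regions unmarked in both colony libraries was marked in both resistant libraries, against 5.18%.

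The 5 largest falls were these 2 regions (limma adjusted p = 2.27e-04 and 8.88e-05), chr6:26187816-26190069 (log2 change −1.11 ± 0.11 SE, limma adjusted p = 2.48e-04), chr6:27202347-27204170 (−0.89 ± 0.20 SE, 0.0147, but 0.0682 without colony 2 and 0.0817 without resistant 2) and chr6:26103261-26105074 (−0.75 ± 0.14 SE, 0.00532). At chr6:26249158-26255225 the change was −0.74 ± 0.081 SE (limma adjusted p = 3.53e-04). The region chr6:26025554-26035086, with 8073 and 7239 bp in colony and 4411 and 4354 in resistant libraries, fell by 0.55 on the log2 scale (limma adjusted p = 9.30e-04).

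The 3 wider regions all lay in the second interval and had fewer covered bases in colony than in parental cells. At chr6:27254664-27256602, 165 kb into it, covered bases were 1043 and 650 for parental, 544 and 308 for colony, 1409 and 1336 for resistant, 886 and 549 for GFP, and 209 and 156 for NRAS Q61K. Resistant cells were highest there and NRAS Q61K cells lowest (log2 change of resistant against colony 1.58 ± 0.28 SE, limma adjusted p = 0.00423). At chr6:27515358-27517358, 425 kb into it, they were 1834 and 1534, 444 and 0, 1343 and 927, 1986 and 1500, and 1720 and 1543 in the same order (limma adjusted p = 0.0135 against colony, 0.073 without resistant 1). At chr6:27280049-27282012 they were 306 and 352 in colony and 774 and 527 in resistant libraries (0.89, limma adjusted p = 0.0415), a call lost without any 1 of the 4 libraries. Of the 15 calls, 10 held with each library left out in turn.

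NRAS Q61K and GFP cells overlapped in the covered length of the cluster. The cluster had 169.8 and 168.7 kb under peaks in the GFP pair, against 176.7 and 158.6 kb with NRAS Q61K, a difference of −0.969% with overlapping groups (p = 1.0, two-sided exact permutation test); the NRAS Q61K pair was the more variable. Of 65 regions, 1 was wider (1.54%, against 5.06% of all regions tested) and 1 narrower (1.54%, against 2.18%), where 7.23% of all changed either way. The wider one, chr6:27838811-27841847, had 1470 and 1499 bp in the GFP pair, against 2517 and 1823 with NRAS Q61K (log2 change 0.52 ± 0.12 SE, limma adjusted p = 0.0343). The narrower one was chr6:27254664-27256602 (−1.19 ± 0.28 SE, limma adjusted p = 0.0392). Neither call held with each library left out in turn: the count was 0 without GFP 1, GFP 2 or NRAS Q61K 1, and 1 without NRAS Q61K 2. No region was lost, of 62 marked in both GFP libraries (3.18% of all such regions were), or gained, of 2 unmarked (15.5%).

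The balance between the intervals also differed by group. The first interval held 42.7% and 43.1% of the cluster's covered bases (parental), 45.2% and 45.4% (colony), 45.8% and 45.1% (resistant), 41.9% and 41.7% (GFP), and 41.9% and 42.7% (NRAS Q61K). All 4 colony and resistant libraries stood above the other 6. The colony and resistant groups share the parental controls, so their differences from parental cells are not independent of each other. In colony against parental cells the covered length of the stretch between the intervals was 51.6 and 53.9 against 56.1 and 51.7 kb, which overlapped, while that of the first interval did not.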

How the data were processed

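The 10 H3K4me3 libraries were analysed, and the 10 inputs were not analysed here. The tools named in the submitters' processing notes are MACS2 2.1.2, deepTools 2.5.4, BWA and SAMtools, and the builds named are hg19 and GRCh37, all without roles. Fixation in 4% paraformaldehyde is stated for parental, colony and resistant cells only. The authors deposited 1 peak list per library, with start and end positions in bases. In each deposited list the score is the −log10 q-value times 10, truncated, but for a few peaks. The deposited fold is a ratio that the authors took between a summit and its local background. Whether that background came from the same library or from its input is not given. The deposited −log10 q-value and −log10 p-value describe that summit. The sources used here do not give the treatment of inputs or duplicate reads. Read depth per library is unknown, so no counting interval is given.

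Of 306884 peaks, 589 on sequences other than the 22 autosomes and X were left out. Peaks of all libraries within 1000 bp were merged into regions, and bases under peaks were counted per library with Python 3.11.15, numpy 2.4.6 and pandas 2.3.3. Regions marked in 2 or more libraries went into a limma fit (version 3.58.1, R 4.3.3) of log2(bases + 200), centred per library on the median of regions present in all 10. The fit had 5 group means and a trended eBayes step, and p-values were adjusted per comparison by Benjamini-Hochberg. A log2 change on this scale understates changes of narrow regions, and no change is given where a group has no covered base. Totals were compared with exact permutation tests in scipy 1.17.1. The code of the fit was run on simulated data drawn around the parental means, with changes added in colony only. These data lacked the groups' differences in list length, so they do not test the calls above. Regions described singly are those past the threshold (the 5 largest rises and falls where more than 10 passed; further calls of the resistant comparisons were chosen after their values were seen), those marked in both libraries of one group and neither of another, and the 5 with the most covered bases or highest fold. The members, lists and tests were chosen with earlier results of these data known. The planned lists of histone gene regulators (NPAT, SLBP, CASP8AP2, LSM10, LSM11, ZNF473) and of melanocyte markers (MITF, SOX10, PMEL, MLANA, TYR, DCT) were not used, because genes could not be placed on GRCh37 and coordinates were not converted. Alternatives were peaks with −log10 q of at least 10, all lists cut to 19111 peaks, merging of overlapping peaks only, pseudocounts of 50 and 1000 bp, no centring, no filter, the replicate number as a block, the share of all covered bases, each interval alone, and leaving out each library.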

Additional observations from a re-analysis of the deposited data

How the results depend on the processing

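The peak lists hold no read counts, so depth cannot be weighed, and 2 libraries a group allow no exact p below 0.333. Of 48 recomputed counts of changed regions, 34 stayed within 1.5 times the reported count and 14 did not, and of 36 recomputed ratios of covered bases 28 moved by less than the replicate SD. With −log10 q of 10 or more, resistant against parental gave 11 calls of 57 regions (19.3%, against 20.2% of all regions) in place of 17 of 65, and NRAS Q61K against GFP gave 1 in place of 2. The latter count was also 1 with lists of equal length and with a pseudocount of 1000 bp, 6 with merging of overlapping peaks only, and 0 without centring. Without centring, resistant against colony gave 26 calls in place of 15, while the share of all regions called went from 22.5% to 29.0%. Leaving out each library in turn gave 3 to 8 calls for colony against parental, 12 to 15 for resistant against parental, 12 to 16 for resistant against colony and 0 to 1 for NRAS Q61K against GFP; where 1 library was left in a group, it was assumed to vary like the others.

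The log2 ratio of covered bases for colony against parental, 0.10 as reported, was 0.17 as a share of all covered bases, 0.17 in the first interval and 0.033 in the second. For resistant against parental, −0.26 as reported, it was 0.053 as a share of all covered bases, which reverses it, −0.17 in the first interval and −0.32 in the second. For resistant against colony, −0.35 as reported, the share gave −0.12. With each library left out the ratios ranged from 0.041 to 0.15, from −0.31 to −0.20, from −0.39 to −0.32, and, for NRAS Q61K against GFP, from −0.094 to 0.062. The cause of these differences was not tested.

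After centring, same-numbered libraries did not deviate together (correlations of 0.0018, 0.016, −0.021 and 0.029 over 23153 regions). Centring removes a shift shared by a whole library, so these values cannot decide whether the numbers pair the libraries. With the replicate number as a block, the counts of calls were 10, 17 and 15, as without it, but not for the same regions. For colony against parental, chr6:26087230-26089447 (limma adjusted p = 0.0510) and chr6:27097558-27103249 (0.0644) were lost and chr6:26025554-26035086 (0.0342) and chr6:27254664-27256602 (0.0483) were called. For resistant against parental, chr6:27437214-27443184 (limma adjusted p = 0.0581) was lost and chr6:27254664-27256602 (0.0310) was called. NRAS Q61K against GFP gave 1 call in place of 2, losing chr6:27838811-27841847 (0.0568). No call changed for resistant against colony.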
